A study of Mus musculus with 12 samples.

Results

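The genes described here are 2 metallothioneins, the transcription factor that controls them and 4 zinc transporters: Mt1, Mt2, Mtf1, Slc30a1, Slc30a4, Slc39a10 and Slc39a14. They were chosen by name, 1 row of the count table for each symbol, which gave 7 of the 56941 genes in the table. All 7 passed the filter on low counts. Their Ensembl identifiers are ENSMUSG00000031765 (Mt1, chromosome 8), ENSMUSG00000031762 (Mt2, chromosome 8), ENSMUSG00000028890 (Mtf1, chromosome 4), ENSMUSG00000037434 (Slc30a1, chromosome 1), ENSMUSG00000005802 (Slc30a4, chromosome 2), ENSMUSG00000025986 (Slc39a10, chromosome 1) and ENSMUSG00000022094 (Slc39a14, chromosome 14). They were measured by RNA sequencing in RAW264.7 cells, a murine macrophage line, as bulk RNA from whole cultures. The compressed group lay for 24 h under an agarose cushion with a weight on top that applied 0.14 kPa (n = 6 libraries). The control group lay for the same 24 h under the cushion alone (n = 6 libraries). The insert, the cushion and the medium were thus the same, and no genetic change made in either group is described. Both groups come from 1 cell line, and no source used here says that the 6 libraries of a group are separate cultures, so the p-values measure the spread between these libraries, which may be technical.

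Zinc in the cell is held at a very low free level by proteins that bind it and by transporters that move it. Metallothioneins are small cysteine-rich proteins that bind zinc and copper. When zinc rises, the zinc finger factor encoded by Mtf1 binds metal response elements and raises transcription of Mt1, Mt2 and Slc30a1. Proteins of the Slc30 family (ZnT) mostly move zinc out of the cytosol, and proteins of the Slc39 family (ZIP) move it in. In macrophages these genes are known for their part in the withholding of metals from microbes and in the response to inflammatory stimuli.

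The coding sequences of Mt1 and Mt2 are shown because the cysteine codons are what makes these proteins bind metal, and because the likeness of the genes bears on how well reads can be told apart. They are taken from the GENCODE M21 transcripts (chromosome 8, plus strand), with the codons TGC and TGT, which encode cysteine, in capitals.
Mt1: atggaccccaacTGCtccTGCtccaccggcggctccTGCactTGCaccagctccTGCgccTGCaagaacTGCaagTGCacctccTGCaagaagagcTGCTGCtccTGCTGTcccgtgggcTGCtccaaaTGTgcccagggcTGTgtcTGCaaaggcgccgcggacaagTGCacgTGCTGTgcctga
Mt2: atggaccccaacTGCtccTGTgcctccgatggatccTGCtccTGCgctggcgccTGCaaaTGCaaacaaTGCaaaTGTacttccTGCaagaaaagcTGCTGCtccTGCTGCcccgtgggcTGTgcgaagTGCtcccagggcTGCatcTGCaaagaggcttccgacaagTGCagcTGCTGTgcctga
Each has 61 codons before the stop, of which 20 are cysteine codons (32.8%), and all 20 stand at the same place in both genes. The coding sequences are identical at 148 of 186 bases (79.6%). The longest stretch that the full transcripts share without a difference is 20 bases.

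Sequence upstream of 3 genes is shown because Mt1, Mt2 and Slc30a1 are known targets of the Mtf1 product and moved in different directions in these cells. The windows are the 250 bases before the start of the gene in RefSeq, build GRCm38.p6, all on the plus strand. Capitals mark matches to the core of the metal response element, TGCACNC or TGCGCNC, on either strand.
Mt1, chr8:94178839-94179088: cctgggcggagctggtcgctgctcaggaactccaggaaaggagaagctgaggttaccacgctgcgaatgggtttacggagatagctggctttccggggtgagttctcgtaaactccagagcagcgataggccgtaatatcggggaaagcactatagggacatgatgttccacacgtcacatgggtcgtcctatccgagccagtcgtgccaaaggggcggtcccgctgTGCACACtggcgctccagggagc
Mt2, chr8:94172368-94172617: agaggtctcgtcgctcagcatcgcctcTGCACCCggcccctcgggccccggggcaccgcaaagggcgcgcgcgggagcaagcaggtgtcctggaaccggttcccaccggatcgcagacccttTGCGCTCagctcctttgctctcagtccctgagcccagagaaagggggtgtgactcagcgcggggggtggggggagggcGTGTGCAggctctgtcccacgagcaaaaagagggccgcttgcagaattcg
Slc30a1, chr1:191906531-191906780: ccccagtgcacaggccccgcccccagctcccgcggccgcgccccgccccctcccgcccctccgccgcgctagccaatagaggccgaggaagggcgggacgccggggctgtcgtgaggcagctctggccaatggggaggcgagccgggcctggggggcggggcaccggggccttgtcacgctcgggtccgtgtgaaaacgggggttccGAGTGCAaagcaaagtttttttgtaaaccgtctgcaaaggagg
The Mt2 window held 3 matches, and those of Mt1 and Slc30a1 held 1 each. Of 32851 such windows in the mouse table, 21.4% held at least 1 match and 1.26% at least 3. The window of Slc30a4 held 2 matches, beside 5.17% of all windows with 2 or more, and those of Mtf1 and of both starts of Slc39a10 held 0. The core of the antioxidant response element, TGACNNNGC, was found once in the Mt2 window and once in that of Slc30a1, against 10.2% of all windows with at least 1, and did not overlap a match to the metal response element. These are matches of letters in a short window and show no binding. Sequence outside the windows, such as that past the annotated start, was not searched. The counts are therefore not those of whole promoters, and a gene may have more such elements nearby.

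The libraries held 33460807 to 39103987 counts in compressed macrophages and 37948795 to 40463545 in controls. Levels are given as CPM, the counts of a gene per 1e6 counts of its library, with library sizes scaled by the trimmed mean of M-values (TMM). Compressed replicate 6 stood apart: across the tested genes, its correlation with each of the other 5 in log2 CPM was 0.968 to 0.975, beside values of up to 0.996 among those 5. It differed with transcript length. Relative to the mean of the other 5 compressed libraries, its median difference in log2 CPM was 0.79 over 614 genes with transcripts under 1 kb, -0.50 over 2102 genes of 4 to 6 kb and -0.88 over 1256 genes of 6 kb and more. Since the metallothionein transcripts are under 1 kb and the other 5 genes here have transcripts of 4.93 to 7.63 kb, the results for the 7 genes are given with and without this library. Of 10 macrophage markers, all 10 were tested, with 5 higher and 3 lower (Csf1r, Cd68 and Fcgr1), beside 46.4% of all tested genes called. Their summed level was 7918 to 9787 CPM in compressed macrophages, against 6424 to 6875 CPM in controls. The largest part of this sum was Lyz2, at a mean of 4204 CPM in compressed macrophages and 2678 CPM in controls. Of 12 markers of other cell types, 1 was tested (Pecam1, which was called higher at a mean of 0.549 CPM in compressed macrophages and 0.320 CPM in controls), 8 had 10 or fewer counts over all 12 libraries, and Cd3e and Ly6g were at 0. The part of these markers in the results was not tested.

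Transcripts of both Mt1 and Mt2 rose under compression, Mt2 more than Mt1, while transcripts of the zinc exporter gene Slc30a1 and the zinc importer gene Slc39a14 fell slightly. Mtf1, Slc30a4 and Slc39a10 did not pass the test when all 12 libraries were used. In edgeR's quasi-likelihood test, with Benjamini-Hochberg adjustment over all 15001 tested genes and calls at 0.05 or less, 2 of the 7 genes were higher, 2 were lower and 3 were not called. Over all tested genes 46.4% were called, 24.5% higher and 21.9% lower, so a count of 4 of 7 called is near the background and says nothing particular about these genes. The median log2 fold change of the 7 genes was 0.07, beside 0.02 over all tested genes. Without compressed replicate 6, 4 of the 7 were higher and 2 lower, beside 33.8% higher and 32.2% lower of all genes (66% called in all). With all libraries, 5.16% of tested genes were called with a log2 fold change above 1, and of the 7 genes these were Mt1 and Mt2. Without replicate 6, Mt1 lay below 1.

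**Figure D1:**
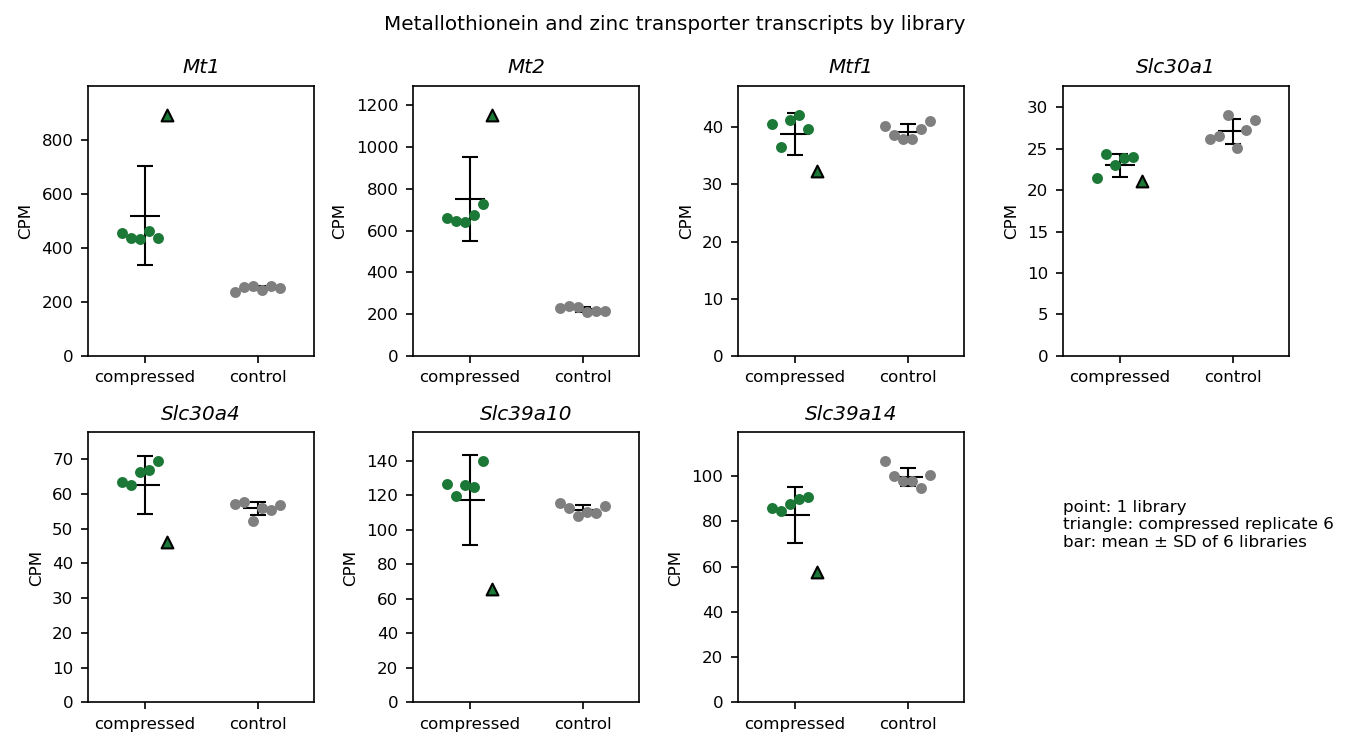
Level in CPM of each of the 7 genes (vertical axes, starting at 0) in the 6 compressed and 6 control libraries, 1 point per library, with the mean and SD of each group as a bar and compressed replicate 6 as a triangle. Every compressed library lies above every control for Mt1 and Mt2, and replicate 6 is the highest for these and the lowest for the other 5 genes.

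Mt2 showed the largest change of the 7 genes. It measured 661.8, 643.6, 640.6, 675.1, 726.0 and 1153 CPM in compressed replicates 1 to 6, against 229.4, 237.0, 234.2, 208.7, 216.0 and 213.1 CPM in control replicates 1 to 6. The groups did not overlap, and the first 5 compressed libraries lay close together, with replicate 6 far above them. The group means were 750.1 ± 200 CPM in compressed macrophages and 223.1 ± 12.0 CPM in controls (SD, n = 6 each). The log2 fold change was 1.75 (standard error, SE, 0.13, edgeR adjusted p = 1.72e-07), or 3.36-fold, and Mt2 ranked 236 from the top among 15001 genes by log2 fold change. Without replicate 6 the log2 fold change was 1.58 (SE 0.039, edgeR adjusted p = 8.22e-17). In bulk RNA, more or fewer cells of a kind and more or less of the RNA per cell cannot be told apart. An antisense gene that overlaps Mt2 held 126 counts over all libraries, beside 212491 for Mt2.

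Mt1, its neighbor on chromosome 8, rose by less. Compressed replicates 1 to 6 were at 454.9, 437.7, 434.0, 463.5, 435.0 and 892.6 CPM, and control replicates 1 to 6 at 237.3, 256.4, 259.1, 245.3, 259.1 and 249.9 CPM. The groups again did not overlap, and replicate 6 lay further above the other compressed libraries than these lay above the controls. The group means were 519.6 ± 183.1 CPM in compressed macrophages and 251.2 ± 8.73 CPM in controls (SD, n = 6 each), a log2 fold change of 1.05 (SE 0.16, edgeR adjusted p = 1.32e-04), or 2.07-fold. Without replicate 6 it was 0.82 (SE 0.030, edgeR adjusted p = 1.35e-14), or 1.77-fold. For comparison, the median log2 fold change of 614 genes with transcripts under 1 kb was 0.12 with all libraries and -0.03 without replicate 6. In that library Mt1 lay 1.00 above the mean of the other 5 on the log2 scale, more than 551 of these 614 genes, and Mt2 lay 0.79 above, more than 302 of them.

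Together Mt1 and Mt2 took 0.105% to 0.197% of all counts in compressed libraries and 0.0466% to 0.0503% in controls. The highest share among the compressed libraries other than replicate 6 was 0.114%.

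The balance between the metallothioneins also changed. The count of Mt2 divided by that of Mt1 in the same library needs no scaling between libraries. It was 1.45, 1.47, 1.48, 1.46, 1.67 and 1.29 in compressed replicates 1 to 6, against 0.967, 0.924, 0.904, 0.851, 0.834 and 0.853 in control replicates 1 to 6. Mt2 thus had more counts than Mt1 in every compressed library and fewer in every control. The mean ratio was 1.47 ± 0.12 in compressed macrophages and 0.889 ± 0.0518 in controls (SD, n = 6 each), a difference of 0.72 on the log2 scale (exact permutation test over 924 splits, two-sided, p = 0.00216, the smallest these splits can give; adjusted p = 0.00432 over the 2 ratios tested). Compressed replicate 6 had the lowest ratio of its group and lay above every control, and without it the difference was 0.76.

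**Figure D2:**
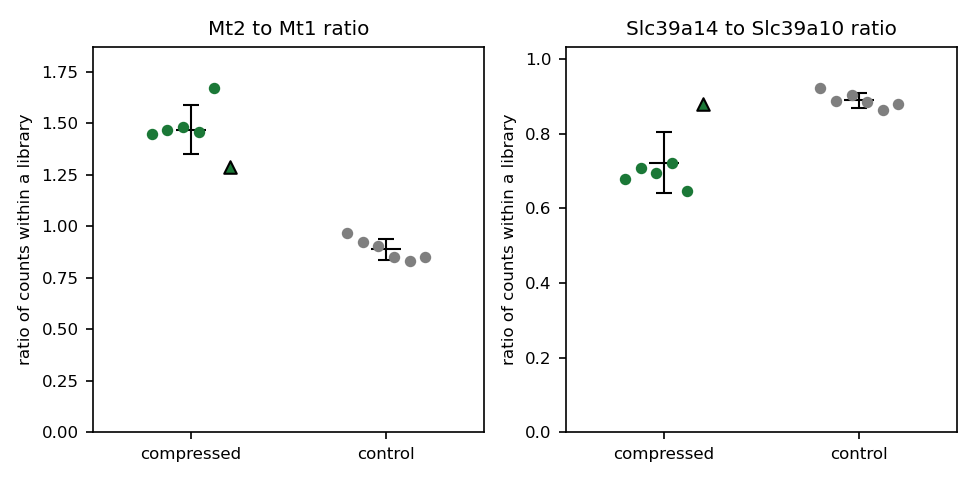
Ratio of counts within a library for Mt2 over Mt1 (left) and Slc39a14 over Slc39a10 (right), 1 point per library, with the mean and SD of 6 libraries as a bar and compressed replicate 6 as a triangle. The ratio of Mt2 to Mt1 lies at 1.29 to 1.67 in compressed libraries and at or below 0.967 in controls.

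Mtf1, which encodes the metal-responsive transcription factor, had 40.6, 36.5, 41.2, 42.1, 39.7 and 32.3 CPM in compressed replicates 1 to 6, and 40.2, 38.6, 38.0, 37.9, 39.6 and 41.1 CPM in control replicates 1 to 6. The ranges overlapped, and compressed replicates 2 and 6 lay below every control. The log2 fold change was -0.02 (SE 0.062, edgeR adjusted p = 0.834), and 0.03 without replicate 6 (SE 0.037, edgeR adjusted p = 0.553). Its direction therefore changed with 1 library, and neither value passed the test. Mtf1 shares exonic sequence with a protein-coding gene on the other strand, 1110065P20Rik, which had 4274 counts over all libraries beside 17507 for Mtf1. The strand setting of the counting is not given in the sources used here.

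Slc30a1 encodes ZnT1, which exports zinc across the plasma membrane. It had 21.5, 24.3, 23.1, 23.9, 24.1 and 21.1 CPM in compressed replicates 1 to 6, against 26.2, 26.5, 29.1, 25.1, 27.2 and 28.5 CPM in control replicates 1 to 6. All compressed libraries lay below all controls, with a gap of less than 1 CPM between the nearest libraries, and replicate 6 lay close to the rest of its group. The means were 22.99 ± 1.38 CPM in compressed macrophages and 27.1 ± 1.497 CPM in controls (SD, n = 6 each). The log2 fold change was -0.24 (SE 0.053, edgeR adjusted p = 0.00234), and -0.22 without replicate 6 (edgeR adjusted p = 2.06e-04). An antisense gene that overlaps it, 1700034H15Rik, had 819 counts beside 11311 for Slc30a1. Slc30a1 thus fell in the same libraries in which Mt1 and Mt2 rose.

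Slc30a4 encodes ZnT4, which loads zinc into vesicles. Compressed replicates 1 to 6 had 63.4, 62.5, 66.4, 66.9, 69.3 and 46.1 CPM, and control replicates 1 to 6 had 57.0, 57.6, 52.3, 55.9, 55.3 and 56.7 CPM. The first 5 compressed libraries lay above every control and replicate 6 below every control. With all libraries the log2 fold change was 0.16 (SE 0.082, edgeR adjusted p = 0.128), which did not pass. Without replicate 6 it was 0.23 (SE 0.033, edgeR adjusted p = 4.27e-06).

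Slc39a14 encodes ZIP14, which carries zinc and also manganese and iron that is not bound to transferrin into the cell. It had 86.0, 84.6, 87.6, 90.1, 90.6 and 57.8 CPM in compressed replicates 1 to 6, against 106.5, 99.9, 97.8, 98.0, 94.7 and 100.4 CPM in control replicates 1 to 6. The groups did not overlap, with replicate 6 far below the rest. The log2 fold change was -0.27 (SE 0.093, edgeR adjusted p = 0.0311). Without replicate 6 it was smaller and the spread much less, at -0.18 (SE 0.032, edgeR adjusted p = 5.18e-05). The call was lost without control replicate 1 (-0.25, edgeR adjusted p = 0.0658) and without control replicate 2 (-0.27, edgeR adjusted p = 0.0528), in fits that kept compressed replicate 6.

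Slc39a10 encodes ZIP10, an importer of the plasma membrane. It had 126.7, 119.4, 126.2, 124.9, 139.7 and 65.6 CPM in compressed replicates 1 to 6, against 115.5, 112.7, 108.1, 110.5, 109.7 and 114.0 CPM in control replicates 1 to 6. As for Slc30a4, the first 5 compressed libraries lay above every control and replicate 6 below every control. The log2 fold change was 0.07 with all libraries (SE 0.14, edgeR adjusted p = 0.715) and 0.19 without replicate 6 (SE 0.035, edgeR adjusted p = 1.06e-04). In replicate 6 the gene lay 0.95 below the mean of the other 5 on the log2 scale, lower than all but 746 of 3358 genes with transcripts of 4 kb and more.

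The counts of the importers within a library separated the first 5 compressed libraries from the controls. Slc39a14 divided by Slc39a10 was 0.679, 0.709, 0.694, 0.722, 0.648 and 0.881 in compressed replicates 1 to 6, against 0.922, 0.887, 0.904, 0.886, 0.863 and 0.880 in control replicates 1 to 6. Replicate 6 lay among the controls. The mean was 0.722 ± 0.0819 in compressed macrophages and 0.890 ± 0.0205 in controls (SD, n = 6 each), a difference of -0.31 on the log2 scale (exact permutation test, two-sided, p = 0.00649, and 0.00649 adjusted over 2 ratios). Without replicate 6 the difference was -0.37.

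**Figure D3:**
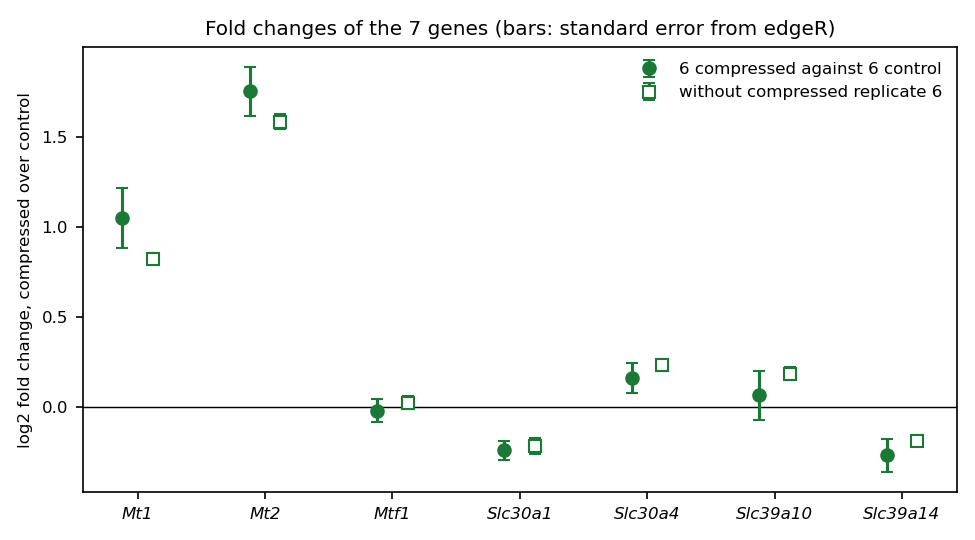
Log2 fold change of each of the 7 genes, compressed over control, with all 12 libraries (filled circles) and without compressed replicate 6 (open squares), with the SE as a bar. Mt2 and Mt1 lie at 1.75 and 1.05 with all libraries, and the other 5 genes lie between -0.27 and 0.16.

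Of the 7 genes, 4 had groups that did not overlap, as had 33.6% of all tested genes. Mt1 and Mt2 were wholly higher in compressed libraries, as were 16.5% of all tested genes, and Slc30a1 and Slc39a14 wholly lower, as were 17% of all tested genes. Without replicate 6 these were 6, all except Mtf1, beside 49.9% of all tested genes.

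Levels can be compared between genes only per length, here as CPM per kb of the principal transcript. Among controls Mt1 had 457.5 ± 15.9 and Mt2 436.5 ± 23.4 CPM per kb (SD, n = 6 each), values that lay within their spread of each other. The next were Slc39a10 at 20.3 ± 0.509 and Slc39a14 at 20.2 ± 0.808, which did not differ beyond their spread, then Slc30a4 at 10.2 ± 0.352, and last Slc30a1 at 5.17 ± 0.285 and Mtf1 at 5.14 ± 0.170, which did not differ beyond their spread either. In compressed macrophages the order was Mt2 (1468 ± 391.4), Mt1 (946.5 ± 333.5), Slc39a10 (21.3 ± 4.74), Slc39a14 (16.8 ± 2.53), Slc30a4 (11.4 ± 1.53), Mtf1 (5.08 ± 0.484) and Slc30a1 (4.38 ± 0.264), all in CPM per kb (SD, n = 6 each). With replicate 6 in the spread, Mt2 and Mt1, Slc39a10 and Slc39a14, and Mtf1 and Slc30a1 lay no further apart than their SDs combined. These SDs leave out that the genes were measured in the same libraries, so they cannot tell which gene lay higher within a library. Within each compressed library Mt2 had 1.29 to 1.67 times the counts of Mt1, on a shorter transcript, so Mt2 lay above Mt1 in each. The other pairs were not compared per kb within a library. Of 14657 genes ranked by level per kb, Mt2 was 26 from the top in compressed macrophages, against 139 in controls, and Mt1 was 72 from the top in compressed macrophages, against 132 in controls. The compressed levels and ranks include replicate 6, in which short transcripts ran high, and were not computed without it. Without that library the compressed mean was 669.4 CPM for Mt2 and 445.0 CPM for Mt1, beside 750.1 and 519.6 CPM with it.

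**Figure D4:**
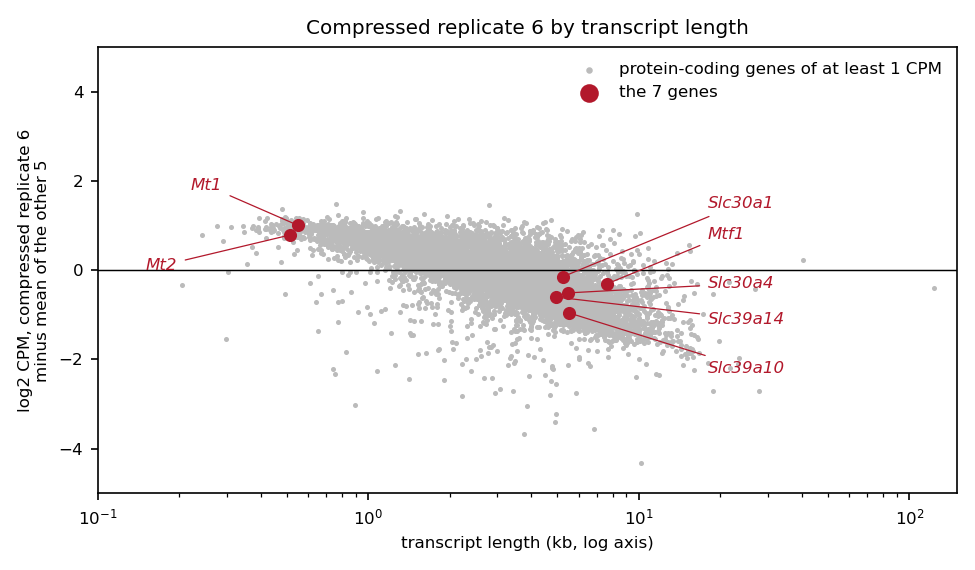
Difference in log2 CPM between compressed replicate 6 and the mean of the other 5 compressed libraries (vertical axis), by transcript length in kb (horizontal log axis), for protein-coding genes of at least 1 CPM (gray points) and the 7 genes (red). Most short transcripts lie above 0 and most long ones below, with Mt1 at 1.00 and Slc39a10 at -0.95.

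Of 4 metallothionein genes, 3 were tested and all 3 were called higher, with and without replicate 6. Of all tested genes, 24.5% were called higher with all libraries and 33.8% without replicate 6. Mt3, best known from brain, was called besides Mt1 and Mt2, at only 0.467 ± 0.124 CPM in compressed macrophages and 0.257 ± 0.0694 CPM in controls (SD, n = 6 each), with a log2 fold change of 0.86 (edgeR adjusted p = 0.00626). Mt4, known from stratified epithelia, had 1 count in compressed and 0 in control libraries.

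Of 10 zinc exporter genes, 6 were tested, of which 2 were higher, 2 lower and 2 not called, beside 46.4% of all tested genes called, and their median was 0.05 on the log2 scale. The largest increase was that of Slc30a9, at 134.4 ± 5.43 CPM in compressed macrophages and 90.5 ± 2.12 CPM in controls (SD, n = 6 each), a log2 fold change of 0.57 (edgeR adjusted p = 9.48e-08). Slc30a9 encodes a transporter known to move zinc out of mitochondria, so toward the cytosol, and is listed here by family name. Slc30a7, which supplies zinc to the early secretory pathway, had a log2 fold change of 0.29 (edgeR adjusted p = 0.00779). Its means were 139.0 ± 17.6 CPM in compressed macrophages and 114.0 ± 2.15 CPM in controls (SD, n = 6 each). Compressed replicates 1 to 5 were at 140.3 to 156.4 CPM. Replicate 6, at 105.2 CPM, lay below every control (111.0 to 117.0 CPM). Without replicate 6 the log2 fold change of Slc30a7 was 0.35 (edgeR adjusted p = 4.10e-09). Slc30a5, which acts in the same compartment as Slc30a7, fell, with a log2 fold change of -0.32 (edgeR adjusted p = 1.94e-05). Its means were 89.7 ± 2.92 CPM in compressed macrophages and 112.2 ± 3.59 CPM in controls (SD, n = 6 each). Slc30a1 was the other decrease. Slc30a6, the partner of Slc30a5 in a heterodimer, was not called at -0.07 (edgeR adjusted p = 0.441). Without compressed replicate 6, 3 exporters were higher and 3 lower, beside 66% of all tested genes called, with Slc30a4 added to the higher and Slc30a6 to the lower ones. The 4 exporter genes that were not tested held 0 to 15 counts in compressed libraries and 0 to 5 in controls.

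Of 14 zinc importer genes, 12 were tested, of which 4 were higher, 2 lower and 6 not called, close to the 46.4% of all tested genes called, and their median was 0.06 on the log2 scale. Slc39a2, a plasma membrane importer, changed more than any other zinc transporter tested, at 5.85 ± 0.526 CPM in compressed macrophages and 1.59 ± 0.213 CPM in controls (SD, n = 6 each), a log2 fold change of 1.87 (SE 0.098, edgeR adjusted p = 5.38e-09). It ranged from 5.52 to 6.90 CPM in compressed libraries, against 1.34 to 1.896 CPM in controls, and was 1.82 without replicate 6. Slc39a4, the importer known for zinc uptake in the gut, had 2.76 ± 0.174 CPM in compressed macrophages and 1.45 ± 0.169 CPM in controls (SD, n = 6 each), a log2 fold change of 0.92. Slc39a1, a widely expressed plasma membrane importer and the most abundant in CPM, had a log2 fold change of 0.42. Its means were 193.7 ± 24.8 CPM in compressed macrophages and 144.6 ± 2.64 CPM in controls (SD, n = 6 each). Compressed replicate 6 was at 244.0 CPM, beside 180.3 to 188.8 CPM in the other compressed libraries. Without it the log2 fold change of Slc39a1 was 0.34. Slc39a11 rose by 0.26 on the log2 scale. Slc39a6 fell to 83.3 ± 9.41 CPM in compressed macrophages, against 107.0 ± 1.86 CPM in controls (SD, n = 6 each). Its log2 fold change was -0.36, and -0.30 without replicate 6, which was at 64.9 CPM beside 83.4 to 90.5 CPM in the other compressed libraries. Slc39a14 was the other decrease. Slc39a8, an importer known to respond to inflammatory signals, was not called at -0.48 (edgeR adjusted p = 0.0805), with 1.20 CPM in compressed macrophages and 1.68 CPM in controls. Without replicate 6, 5 importers were higher and 2 lower, beside 66% of all tested genes called, with Slc39a10 added to the higher ones.

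**Figure D5:**
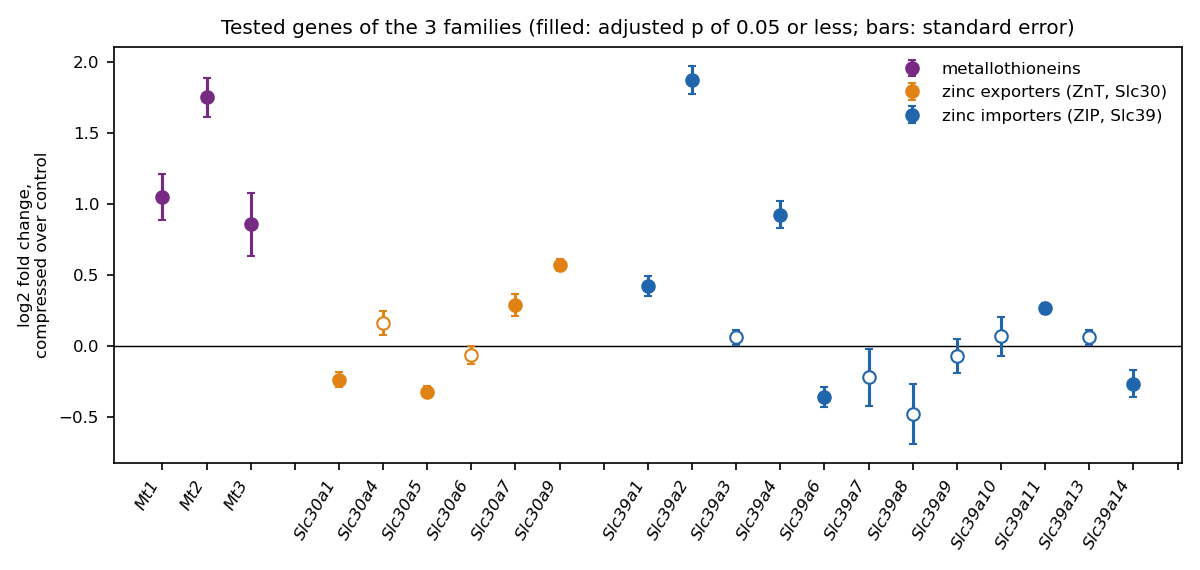
Log2 ratio of compressed to control level for each tested metallothionein, zinc exporter and zinc importer gene (filled points passed the edgeR test at 0.05, open points did not; bars are the SE). The 3 metallothioneins lie above 0, and both transporter families have filled points on either side of 0, from -0.36 for Slc39a6 to 1.87 for Slc39a2.

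Metallothioneins also bind copper, so genes of copper handling were counted. All 12 listed were tested, of which 3 were higher, 1 lower and 8 not called, beside 46.4% of all tested genes called, with the median at 0.10 on the log2 scale. Without replicate 6, 5 were higher and 4 lower, beside 66% of all tested genes called, with the median at -0.01. Atp7b, a copper-exporting ATPase, rose to 17.4 ± 4.68 CPM in compressed macrophages, against 3.34 ± 0.287 CPM in controls (SD, n = 6 each), a log2 fold change of 2.38 (SE 0.18, edgeR adjusted p = 1.64e-07). Slc31a2, a relative of the copper importer Slc31a1, rose by 0.84 (edgeR adjusted p = 1.41e-07). Ccs, the copper chaperone of superoxide dismutase, rose by 0.31 (edgeR adjusted p = 0.0434), and by 0.17 without replicate 6. Sco1, an assembly factor of cytochrome c oxidase, was the 1 gene that fell (-0.28). Atp7a, the copper pump known from macrophage phagosomes, was at 56.7 to 74.1 CPM in compressed replicates 1 to 5 and 6.21 CPM in replicate 6, against 34.5 to 42.4 CPM in controls. It was not called with all libraries (0.58, edgeR adjusted p = 0.237) and had a log2 fold change of 0.81 without replicate 6 (edgeR adjusted p = 7.00e-10). Slc31a1 (105.4 CPM in compressed macrophages and 100 CPM in controls), Cox17 (128.5 CPM in compressed macrophages and 105.5 CPM in controls) and Sod1 (258.2 CPM in compressed macrophages and 279.9 CPM in controls) were abundant and not called with all libraries. Without replicate 6, Slc31a1 was higher (0.11, edgeR adjusted p = 0.00168) and Sod1 lower (-0.26, edgeR adjusted p = 2.12e-05).

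Of the genes of zinc-binding S100 proteins, S100a8 held 55 counts in compressed and 21 in control libraries and S100a9 held 0 in both, and neither was tested. No row matched S100a12. Metallothionein genes are also known targets of glucocorticoids. Of 8 glucocorticoid-induced genes, 6 were tested, of which 3 were higher and 1 lower (beside 46.4% of all tested genes called). Without replicate 6, 4 were higher and 1 lower, beside 66% of all tested genes called. With all libraries the list had its median at 0.29 on the log2 scale, beside 0.02 over all tested genes. Dusp1, a phosphatase of MAP kinases, Sgk1, a kinase, and Klf9, a transcription factor, rose by 0.79, 0.45 and 0.34 on the log2 scale. Fkbp5, a co-chaperone of the glucocorticoid receptor, fell by 0.21 (edgeR adjusted p = 0.0182), and Tsc22d3, which encodes the leucine zipper protein GILZ, was at -0.03 (edgeR adjusted p = 0.813).

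Of the 5 named protein-coding genes on each side of the Mt1 and Mt2 pair, 8 were tested. Of these, 2 were higher and 2 lower, close to the 46.4% of all tested genes called. Apart from Mt3, Cpne2 was higher (0.33, edgeR adjusted p = 0.00132), and Ogfod1 (-0.34) and Nup93 (-0.18, edgeR adjusted p = 0.0473) were lower. Herpud1, a gene of the endoplasmic reticulum stress response, was at 0.10 (edgeR adjusted p = 0.114), and Bbs2, Nudt21 and Nlrc5 were not called. Nudt21, a pre-mRNA cleavage factor, was lower without replicate 6 (-0.33, edgeR adjusted p = 2.26e-06).

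As a description of pattern alone, log2 CPM of each gene was correlated over the 12 libraries with that of 10474 other named genes of at least 1 CPM. These libraries share the group difference and the departure of replicate 6. The genes most like Mt2 were Nfkbia (Pearson r = 0.999), Srgn (0.998) and Tmsb10 (0.998), and those most like Mt1 were the importer gene Slc39a1 (0.996), Nop53 (0.995) and Rhog (0.995). At r of 0.95 or more there were 635 genes for Mt2 and 404 for Mt1. The most like Slc39a14 was Tubgcp6 (0.995), Slc39a10 Sec24a (0.993) and Slc30a4 Rab11fip1 (0.989). Slc30a1 and Mtf1 had few genes of like pattern: the nearest were Tigar (0.947) for Slc30a1 and Slc6a9 (0.95) for Mtf1.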

How the data were processed

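Bulk RNA of 12 libraries, 6 compressed and 6 control, was analysed. The authors aligned reads from directional, mRNA-enriched libraries with STAR 2.7.2 and deposited raw whole-number counts, 1 row per Ensembl gene. Their processing notes name GRCm39. No source used here gives the counting program, its strand setting or the annotation release. Symbols were matched by ID to GENCODE M21 (51948 of 56941 IDs), and transcript length is that of the longest APPRIS principal transcript there. Promoter windows come from RefSeq, GRCm38.p6, with 6 of the 7 genes matched (not Slc39a14). These builds differ, so no other positions are given.

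Counts were analysed with R 4.3.3, edgeR 4.0.16 and DESeq2 1.42.0, and in Python 3.11.15. Genes were kept by filterByExpr (minimum count 10), normalized with TMM factors and compared by the quasi-likelihood F test of edgeR, with condition as the only term and p-values adjusted by Benjamini-Hochberg over 15001 genes. The SE of a log2 fold change is its size divided by the square root of F. Log2 CPM used a prior count of 2. Alternatives were DESeq2, RLE factors, library size alone, no filter, a mean normalized count over 50, a replicate block, an adjusted p of 0.01 and leaving out each library. The procedure was tested on simulated data.

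The members and lists were chosen with earlier results of these data known. Named genes are the 7 members, called list members with the largest changes (up to 4 in each direction), list members of at least 100 CPM and the genes of most similar pattern, and some that this rule takes are not given. Other genes were named after their values were seen.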

Additional observations from a re-analysis of the deposited data

Results flagged for a closer look

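In Dixon's test for a single stray value among 6 libraries, run on 18 sets of values (7 genes and 2 ratios in 2 groups), 6 values lay apart from the rest of their group, and all 6 came from compressed replicate 6. Chance alone marks about 1 set in 20. Replicate 6 was high for Mt1 (892.6 CPM, beside 434.0 to 463.5 CPM in the other compressed libraries) and Mt2 (1153 CPM, beside 640.6 to 726.0 CPM). It was low for Slc30a4 (46.1 CPM, beside 62.5 to 69.3 CPM), Slc39a10 (65.6 CPM, beside 119.4 to 139.7 CPM) and Slc39a14 (57.8 CPM, beside 84.6 to 90.6 CPM). Its ratio of Slc39a14 to Slc39a10 was 0.881, beside 0.648 to 0.722. No control library was marked.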

How the results depend on the processing

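Mt1, Mt2 and Slc30a1 kept their direction and their call in every setting tried: 0.98 to 1.06, 1.68 to 1.76 and -0.30 to -0.23 on the log2 scale over 7 settings with all libraries, and 0.82 to 1.10, 1.58 to 1.79 and -0.26 to -0.22 when 1 library was left out. The other members, except Slc39a14, changed call or direction only without compressed replicate 6. Over fits that each left out 1 library, the number of genes called ran from 6385 to 9981 over all genes, the members called higher from 2 to 4 and the members called lower from 1 to 2. The log2 fold change of Mtf1 ran from -0.043 to 0.0263, positive at 0.0263 without compressed replicate 6, that of Slc30a4 from 0.13 to 0.23, that of Slc39a10 from 0.0105 to 0.19 and that of Slc39a14 from -0.29 to -0.18. At an adjusted p of 0.01, Slc39a14 (-0.27) was no longer called, which left 1 member lower, as did leaving out control replicate 1 or 2. The ratio of Mt2 to Mt1 differed by 0.69 to 0.76 and that of Slc39a14 to Slc39a10 by -0.37 to -0.28 when 1 library was left out. Replicate numbers did not pair the libraries: after removal of group means, same-numbered libraries correlated at -0.115 to 0.04, and none correlated best with its own number. With replicate number as a block, the difference in the ratio of Slc39a14 to Slc39a10 was -0.31 (exact sign-flip test, p = 0.0625). The block changed no call of a member or of the ratio of Mt2 to Mt1. Over all genes 6393 were called with the block, beside 6960 without it. With library size alone, 43.2% of called genes were higher, beside 52.8% with TMM. Counts of the other gene lists without replicate 6 were chosen after seeing the data, and copper genes were then 5 higher and 4 lower. Counting error is small at this depth, except for genes of few counts such as Mt3 and Mt4.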
